A study of Mus musculus with 10 samples.

Results

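Mouse embryonic stem cells that had been kept for a long time in 2i were returned to serum, and the RNA of the returned cells was compared with that of the cells still in 2i. The comparison takes 4 of the 10 RNA-seq libraries of the series, chosen by their labelled culture medium. The 2 serum return libraries come from cells grown for more than 13 passages in 2i with LIF and then for 6 passages in serum with LIF. The 2 long 2i libraries come from cells grown for more than 13 passages in 2i with LIF. A second pair of groups is used for reference: 2 libraries of the original serum culture with LIF and 2 libraries of cells in their first 5 to 6 passages of 2i (first 2i). All groups share LIF (leukaemia inhibitory factor), gelatin-coated plates, a split every 48 h and a reporter of Wnt/β-catenin signalling, and the cells derive from the inner cell mass of the blastocyst. The labels do not say whether serum return was grown from the long 2i culture sampled here, nor that the 2 libraries of a group came from different cultures. The spread behind each p-value may therefore be technical. Strain, sex and clone were not stated in these sources.

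The 2i medium contains inhibitors of the kinase GSK3 (3 µM) and of the ERK pathway (1 µM). GSK3 marks β-catenin for destruction, so that its inhibition is known to switch on genes of the Wnt pathway. ERK, activated by FGF4 that the cells secrete, induces its own feedback inhibitors and pushes stem cells towards differentiation. Serum with LIF supports self-renewal through Stat3 while leaving ERK active. Return to serum removed both inhibitors and added serum at once, so the effects of the 3 changes cannot be told apart here. By its label serum return also spent 6 passages in culture after 2i. Time in culture therefore cannot be told apart from the medium.

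Counts assigned to genes totalled 27766338 and 21589691 in serum return, against 16809070 and 18780882 in long 2i. CPM denotes counts scaled by each library's TMM-adjusted total over the tested genes, and n = 2 libraries per group throughout. Chi-square per degree of freedom between replicates was 3.34 in serum return and 3.5 in long 2i, against 2.8 to 3.91 in the other groups, so no pair was as close as sampling noise. The serum return libraries differed in Rn45s, the ribosomal RNA precursor, with 2496 and 15476 CPM in serum return, against 3999 and 3084 CPM in long 2i. All 8 stem cell markers were expressed in each library, and they summed to 6890 to 7030 CPM in serum return and 4550 to 4600 CPM in long 2i. Markers of fibroblasts or feeder cells (9 genes) summed to 40.2 to 46.3 CPM in serum return and 8.23 to 8.33 CPM in long 2i. Thy1 and Pdgfrb were the main ones in serum return and Pdgfrb in long 2i. None was at 0 in both libraries of a group. However, Dcn and Col3a1 were at 0 in replicate 2 of both groups, as in replicate 2 of every group of the series, and above 0 in each replicate 1. In replicate 1 they read 2.48 and 0.717 CPM in serum return and 0.473 and 0.236 CPM in long 2i. Neuroectoderm markers (6 genes, none at 0 in either group) summed to 78 to 87.5 CPM in serum return and 321 to 322 CPM in long 2i. Nefl and Nefm made up most of the sum in long 2i, and Tubb3 in serum return. Sox1 and Tubb3 were higher in serum return, whereas Nefl, Nefm, Nes and Pax6 were lower. Primitive endoderm markers (7 genes) summed to 46.6 to 48 CPM in serum return, where Afp was at 0, and 15.3 to 18.7 CPM in long 2i. Blood and endothelium markers (6 genes) summed to 79.1 to 84.7 CPM in serum return and 77.6 to 83.8 CPM in long 2i. The globin Hbb-b1 was at 0 in all 4 libraries. Pecam1 made up most of both sums, so they hide opposite changes of less expressed markers. Cdh5 was higher in serum return, and Tek and Vwf were lower. In bulk RNA, fewer cells of a type and less RNA per cell cannot be told apart.

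Most of the tested transcriptome differed between serum return and long 2i. By edgeR's quasi-likelihood test (p-values adjusted after Benjamini and Hochberg), 10153 of 14220 genes (71.4%) differed between serum return and long 2i at an adjusted p under 0.05. Of these, 5040 (35.4%) were higher and 5113 (36%) lower in serum return. The scaling centres the typical gene near 0, so each direction is relative to that centre. Changes of at least 2-fold numbered 3808 (26.8%), and among these the higher genes were more numerous, with 2355 against 1453. At 8-fold or more, 677 genes (4.76%) were higher and 333 (2.34%) lower. The 2 libraries of one group lay wholly above those of the other for 12053 genes (84.8%). Statements below that the libraries of a gene were separated are to be read beside this share.

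The genes with the largest increases came from near silence in long 2i. Cdh22, a cadherin, read 8.75 and 8.05 CPM in serum return, against 0 and 0 CPM in long 2i, at least 100.4-fold higher taking 3 counts over both long 2i libraries as the floor. The long noncoding RNA Miat read 5.92 and 4.7 CPM in serum return, against 0 and 0 CPM in long 2i, at least 63.5-fold higher. Nos3, the endothelial nitric oxide synthase, read 40.2 and 41.1 CPM in serum return, against 0.177 and 0.158 CPM in long 2i, a 234-fold difference (adjusted p = 2.15e-17, edgeR). Both serum return libraries thus lay far above both long 2i libraries. Loxl2, a lysyl oxidase that crosslinks collagen, rose 232-fold to 72.3 and 72.8 CPM in serum return, against 0.414 and 0.211 CPM in long 2i. Cntfr, a receptor subunit for ciliary neurotrophic factor, rose 162-fold, and Myrf, the myelin regulatory factor, 154-fold. For Gfra1, a co-receptor for glial cell line-derived neurotrophic factor, the long 2i libraries held at most 3 counts together, so no fold is given for its 18.4 and 17.9 CPM in serum return. The same holds for Olfm2, a secreted olfactomedin protein, for Adm2, an adrenomedullin peptide, and for Atp2c2, a calcium pump of the secretory pathway.

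The largest decreases were in genes near or at 0 in serum return. Nefm, the medium neurofilament chain, read 0.287 and 0.465 CPM in serum return, against 131 and 123 CPM in long 2i, a fall of 342-fold (adjusted p = 6.98e-20, edgeR). Cyp1a1, a cytochrome P450 induced by the aryl hydrocarbon receptor, read 0.215 and 0.0465 CPM in serum return, against 51.5 and 48.4 CPM in long 2i and fell 338-fold. Pof1b, an actin-binding protein, had no counts in serum return and 6.38 and 7.02 CPM in long 2i, at least 110.3-fold lower. Non-overlap between the groups was a condition for choosing these genes. Gpx2, a glutathione peroxidase, fell 237-fold to 0.143 and 0.14 CPM in serum return, against 33.9 and 36.2 CPM in long 2i. Among developmental transcription factors, Tbx15 read 0.108 and 0.186 CPM in serum return, against 16.8 and 17.5 CPM in long 2i, a fall of 116-fold. Its relative Tbx18 read 0 and 0.093 CPM in serum return, against 6.32 and 5.6 CPM in long 2i, and the X-linked homeobox gene Rhox9 0.0359 and 0.093 CPM, against 7.21 and 6.7 CPM, both too near 0 in serum return for a fold. Trpv5, a calcium channel, and Dnajc5g, a DnaJ-family co-chaperone, were likewise at or below 3 counts over the serum return group. Xlr5a and Xlr5b stand among these genes as well, but they have near-identical copies and their counts are uncertain.

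**Figure D1:**
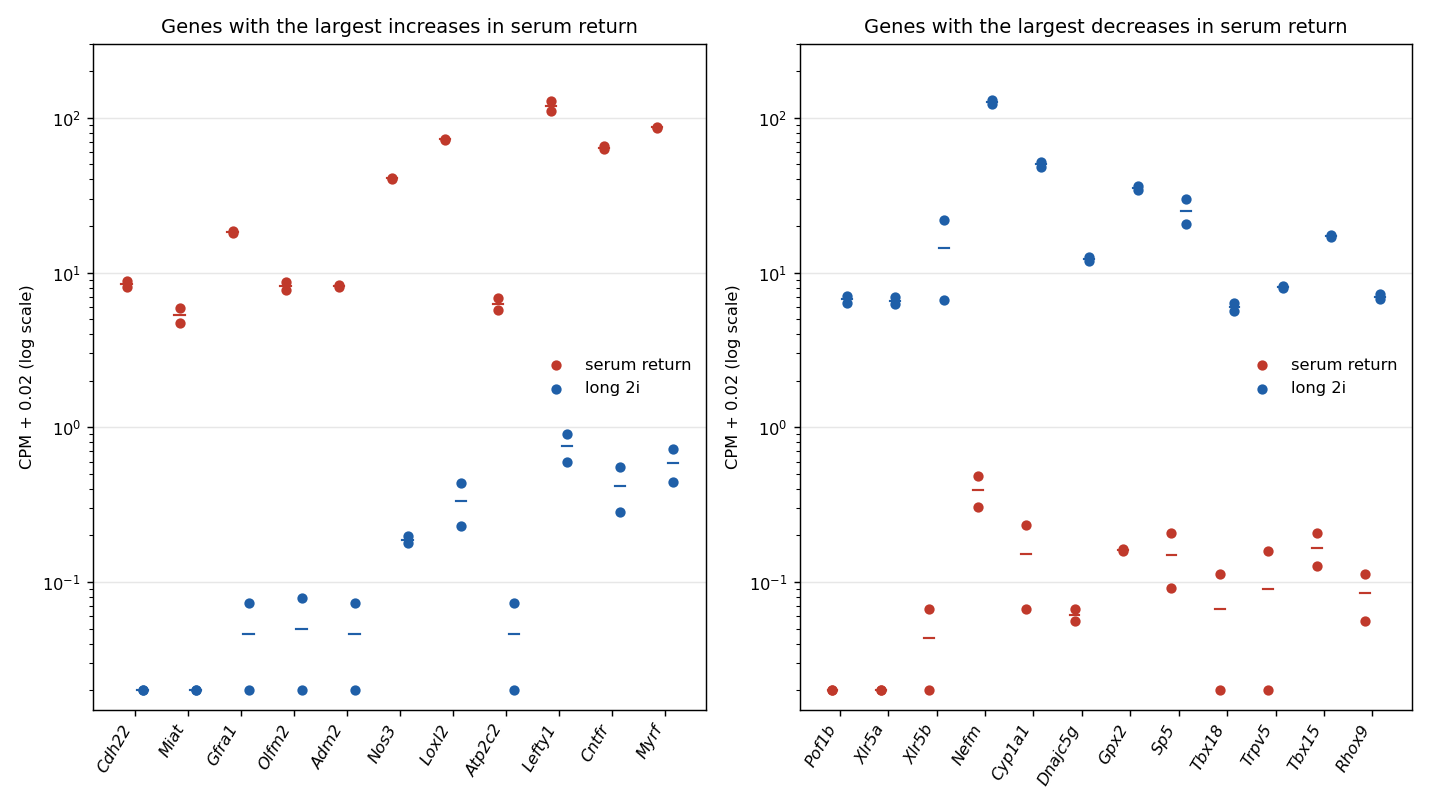
CPM plus 0.02 on a log axis for 11 named genes with the largest increases (left) and 12 with the largest decreases (right) in serum return (red) and long 2i (blue); points are libraries and short bars the mean of 2. Non-overlap of the serum return and long 2i libraries was a condition for choosing the 23 genes. In each the lower group lies below 1 CPM.

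Most listed genes downstream of Wnt were lower in serum return than in long 2i. Of 22 tested members of the list of Wnt/β-catenin targets, 13 fell and 5 rose. The called share (rises and falls together) was 81.8% beside 71.4% of all genes. The median log2 fold change was -1.1 beside -0.00613 over all genes. The called shares of the lists below are likewise to be read beside 71.4%, and their rises and falls beside 35.4% and 36%. Axin2, a scaffold that feeds back on the pathway, read 7.86 and 7.68 CPM in serum return, against 73 and 75.2 CPM in long 2i, a fall of 9.52-fold (log2 fold change -3.25 ± 0.08 SE, adjusted p = 5.87e-18, edgeR). Sp5, a zinc finger factor induced by β-catenin, read 0.0717 and 0.186 CPM in serum return, against 20.5 and 29.7 CPM in long 2i and fell 197-fold (adjusted p = 1.71e-07, edgeR). The 2 long 2i libraries differed more from each other in Sp5 than in Axin2, yet both stood above both serum return libraries. Tnfrsf19, a receptor of the tumour necrosis factor family, fell 7.31-fold to 3.55 and 3.07 CPM in serum return, against 23.6 and 25.2 CPM in long 2i. Nkx1-2, a homeobox gene, had no counts in serum return and 2.13 and 3.01 CPM in long 2i, at least 42.3-fold lower. T (brachyury), a regulator of the primitive streak, fell to 0.108 and 0.093 CPM in serum return, against 3.07 and 3.43 CPM in long 2i. The feedback inhibitor Notum, which inactivates Wnt proteins, and the β-catenin partner Tcf7 fell by 1.15 and 1.1 on the log2 scale. Nkx1-2, T, Notum and Tcf7 were chosen after their values were seen, because they lie below the level or rank of the naming rule. Lef1, another partner of β-catenin, read 1.08 and 1.16 CPM in serum return, against 1.48 and 2.22 CPM in long 2i and did not pass (adjusted p = 0.0583, edgeR), although its adjusted p lay under 0.05 under 4 alternatives (0.0336 to 0.0464).

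The 5 listed targets that rose included Bmp4, a ligand with other inputs than Wnt, at 183 and 184 CPM in serum return, against 37.9 and 41.7 CPM in long 2i, a 4.61-fold difference. The count of rises fell to 3 without replicate 2 of serum return or without replicate 1 of long 2i. Pathway components split evenly: of 28 ligands, receptors and transducers, 11 rose and 12 fell, a called share of 82.1%. Wls, which carries Wnt proteins to the cell surface, read 4.2 and 4.37 CPM in serum return, against 64.5 and 61.7 CPM in long 2i and fell 14.7-fold. Porcn, the acyltransferase that lipidates Wnt proteins before Wls takes them up, moved the other way, with 26.8 and 27.5 CPM in serum return, against 5.67 and 6.6 CPM in long 2i, a 4.4-fold rise. The receptor Fzd2 fell 5.08-fold to 1.26 and 1.63 CPM in serum return, against 6.8 and 7.71 CPM in long 2i, and the ligand Wnt5b fell 10.3-fold.

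The promoter of Sp5 is shown because Sp5 fell most of the listed Wnt targets with enough counts for a fold. The window is RefSeq's on GRCm38.p6, chr2:70474673-70474972 (plus strand), from 250 bases before to 50 after the listed start. Capitals mark CTTTGAT, the core recognised by Tcf/Lef proteins, searched on both strands, which lies 104 bases upstream of the start.
Sp5: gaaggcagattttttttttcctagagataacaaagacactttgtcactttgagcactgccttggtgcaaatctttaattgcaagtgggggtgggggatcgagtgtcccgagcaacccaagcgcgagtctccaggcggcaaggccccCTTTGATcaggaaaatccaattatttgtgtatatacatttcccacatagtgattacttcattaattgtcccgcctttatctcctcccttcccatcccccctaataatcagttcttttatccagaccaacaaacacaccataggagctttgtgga
The letters CTTTGAT occur in 3.73% of the 32851 promoter windows of this length. Of 16 listed Wnt targets with a window, Sp5 and Tnfrsf19 hold them. A match describes letters and not a bound site.

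Most listed ERK feedback and target genes were higher in serum return than in long 2i. Of 20 tested members 17 rose and 1 fell, a called share of 90%, with a median log2 fold change of 1.04. Spry4, a feedback inhibitor of receptor tyrosine kinase signalling, averaged 451 ± 14 CPM in serum return and 19.7 ± 0.9 CPM in long 2i (SD), a rise of 22.9-fold (log2 fold change 4.52 ± 0.07 SE, adjusted p = 1.81e-21, edgeR). Egr1, an immediate-early zinc finger factor, read 28.4 and 27.7 CPM in serum return, against 2.78 and 2.96 CPM in long 2i and rose 9.76-fold. Myc, a growth regulator held up by ERK and LIF signalling, read 80.2 and 81.7 CPM in serum return, against 9.34 and 9.55 CPM in long 2i and rose 8.56-fold. In each of the 3 genes both serum return libraries were several times higher than both long 2i libraries. Dusp5, a nuclear phosphatase of ERK, rose 7.36-fold to 5.7 and 7.21 CPM in serum return, against 1 and 0.739 CPM in long 2i. The PEA3 factors moved much less: Etv4 rose 2.05-fold, with 274 and 293 CPM in serum return, against 135 and 141 CPM in long 2i, and Etv5 was the 1 listed gene that fell. Etv5 read 384 and 380 CPM in serum return, against 449 and 455 CPM in long 2i (log2 fold change -0.24, adjusted p = 6.8e-05, edgeR) and was named after its value was seen.

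Not all immediate-early and cytoskeletal genes followed. In the list of immediate-early, SRF and YAP targets 11 of 20 tested genes fell and 7 rose, with a called share of 90% and a median of -0.42. Those that rose included Egr1 and Atf3, a stress-induced factor, at 5.2 and 5.68 CPM in serum return, against 0.887 and 0.95 CPM in long 2i. Cyr61, a secreted matrix protein and YAP target, read 7.68 and 7.26 CPM in serum return, against 41.4 and 40.9 CPM in long 2i and fell 5.49-fold. Jun, a subunit of the AP-1 factor, fell 3.99-fold to 2.69 and 2.61 CPM in serum return, against 10.4 and 10.8 CPM in long 2i. Egr1 and Jun, both known as early targets of growth factors, therefore moved in opposite directions.

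Several FGF receptors differed between serum return and long 2i. Fgfr3 read 51.3 and 55.2 CPM in serum return, against 2.48 and 2.74 CPM in long 2i, a rise of 20.3-fold, and Fgfr4 rose 5.8-fold to 5.7 and 6 CPM in serum return, against 0.709 and 1.27 CPM in long 2i. Fgfr2 fell 5.07-fold, with 1.26 and 1.49 CPM in serum return, against 6.38 and 7.44 CPM in long 2i. Between original serum and first 2i Fgfr2 did not pass (log2 fold change -0.12, adjusted p = 0.771, edgeR). The ligand Fgf17 fell 2.66-fold, whereas Fgf4, the ligand that activates ERK in these cells, read 162 and 176 CPM in serum return, against 165 and 169 CPM in long 2i and did not pass (adjusted p = 0.829, edgeR). Over the list 5 of 12 tested genes rose and 5 fell, a called share of 83.3%. Fgf4 was named after its value was seen.

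The core pluripotency network stayed at high levels in both media. Nanog read 949 and 902 CPM in serum return, against 907 and 866 CPM in long 2i and Esrrb 987 and 1031 CPM in serum return, against 952 and 1002 CPM in long 2i, and neither passed (adjusted p = 0.238 and 0.421, edgeR). Pou5f1 rose 1.3-fold, with 1163 and 1219 CPM in serum return, against 890.3 and 948 CPM in long 2i. Sox2 rose 1.87-fold, with 728 and 743 CPM in serum return, against 382 and 404 CPM in long 2i (log2 fold change 0.91 ± 0.05 SE, adjusted p = 3.74e-13, edgeR). The serum return libraries thus stood above the long 2i libraries for Sox2 and Pou5f1, and Nanog and Esrrb overlapped. Tdgf1 (Cripto), a co-receptor for Nodal, rose 4.33-fold to 1369.7 and 1268 CPM in serum return, against 315 and 294 CPM in long 2i. The homeobox gene Gbx2 rose 7.86-fold, with 122 and 135 CPM in serum return, against 14.9 and 17.6 CPM in long 2i. Dppa3 (Stella), which protects methylation in the zygote, fell 43.2-fold, with 0.61 and 0.186 CPM in serum return, against 18.9 and 18.2 CPM in long 2i. Of the 28 tested pluripotency genes 15 rose, 6 fell and 7 did not pass, a called share of 75% beside 71.4% of all genes.

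Genes of the formative and primed epiblast were split, with 4 higher and 6 lower of 15 tested. The called share was 66.7% beside 71.4% of all genes. Tcf15, a helix-loop-helix factor of cells about to leave the naive state, read 70.7 and 107 CPM in serum return, against 2.25 and 3.48 CPM in long 2i, a rise of 30.5-fold. Zic2, a zinc finger factor of the epiblast and neural plate, read 1.43 and 1.44 CPM in serum return, against 19.9 and 22.6 CPM in long 2i and fell 14.7-fold. Otx2, a homeobox regulator of the formative state, fell 1.79-fold to 13 and 12.6 CPM in serum return, against 23.3 and 22.6 CPM in long 2i. Fgf5, the classic primed marker, stayed near 0 in all 4 libraries, at 0.0359 and 0.0465 CPM in serum return and 0.118 and 0.106 CPM in long 2i, and did not pass the filter on low counts.

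Nodal antagonists rose steeply. Nodal signals through Smad2/3 and induces Lefty1 and Lefty2, which in turn block it. Lefty1 read 111 and 129 CPM in serum return, against 0.887 and 0.581 CPM in long 2i, a rise of 163-fold (log2 fold change 7.35 ± 0.15 SE, adjusted p = 5.86e-19, edgeR). Lefty2 read 341 and 339 CPM in serum return, against 11 and 10 CPM in long 2i and rose 32.4-fold. Inhbb, an activin subunit that signals through the same Smads, read 186 and 202 CPM in serum return, against 4.14 and 4.91 CPM in long 2i and rose 42.6-fold. All 3 genes were separated between the groups by more than an order of magnitude. Nodal itself did not rise with them. It read 53.7 and 57.6 CPM in serum return, against 86.9 and 92.3 CPM in long 2i (log2 fold change -0.69, adjusted p = 3.18e-09, edgeR), a value looked up after those of the Lefty genes were seen. Fst (follistatin), which binds activin, fell 7.52-fold to 1.04 and 0.93 CPM in serum return, against 8.22 and 6.81 CPM in long 2i.

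Of the BMP target genes Id1 rose 6.28-fold, with 130.2 and 136 CPM in serum return, against 19.7 and 22.6 CPM in long 2i, while Id3 fell, with 12.2 and 16.1 CPM in serum return, against 48.5 and 52.3 CPM in long 2i (log2 fold change -1.85, adjusted p = 2.24e-10, edgeR). Id1 and Id3 encode related dominant-negative helix-loop-helix proteins, and Id3 was named after its value was seen. Across the Nodal and BMP list 11 of 17 tested genes rose and 4 fell, a called share of 88.2%, with a median log2 fold change of 1.19.

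**Figure D2:**
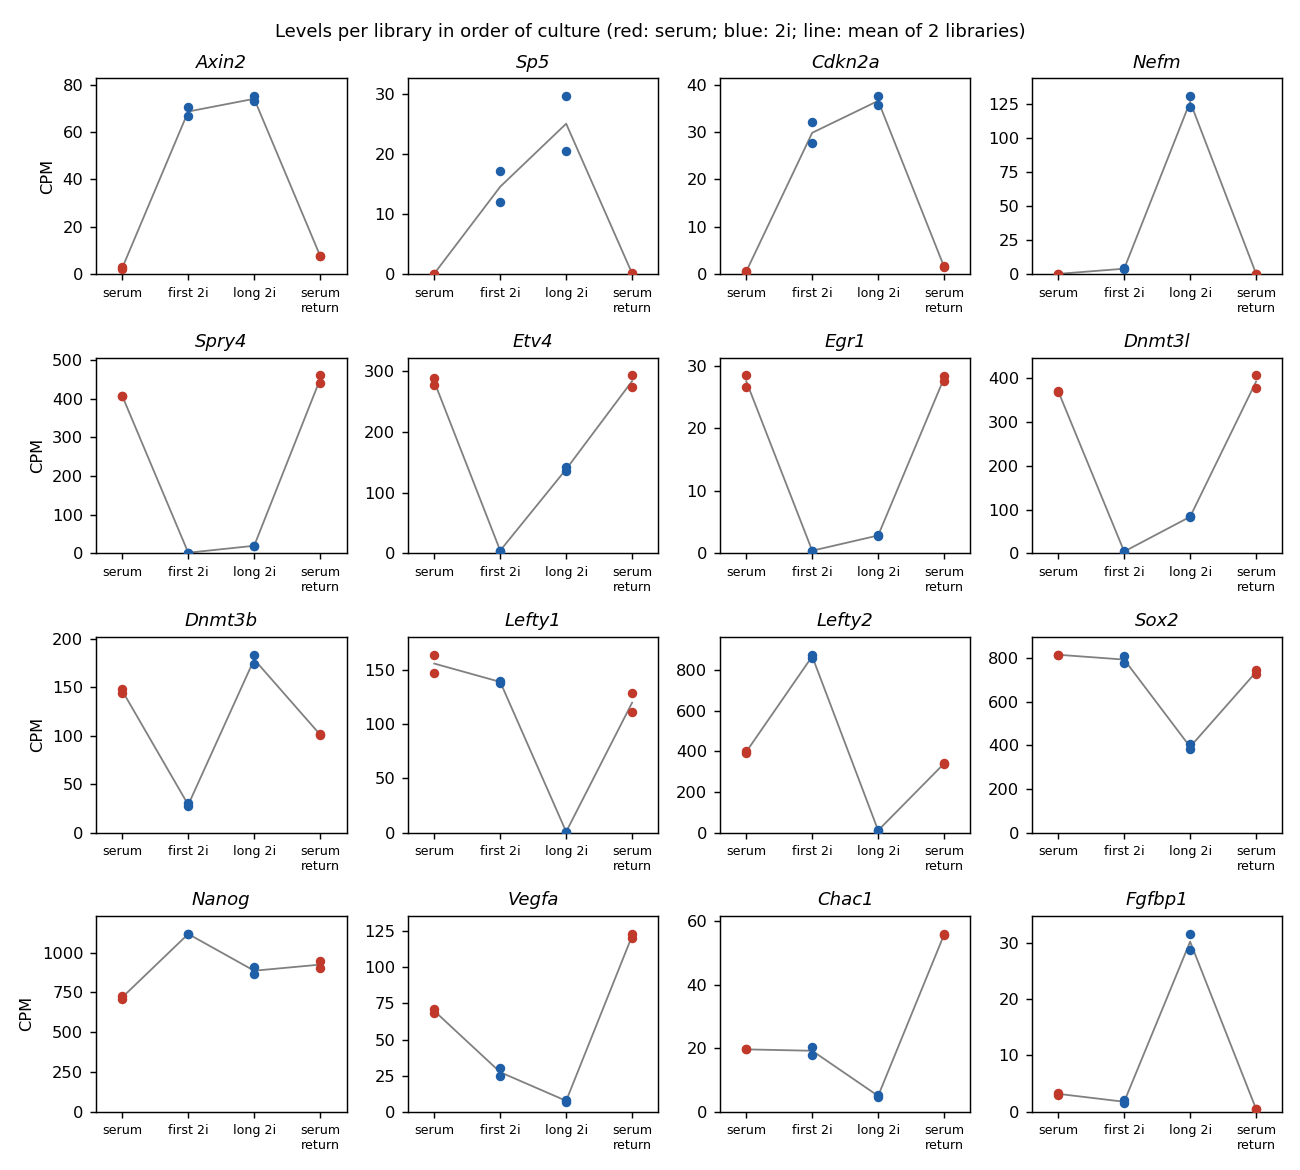
CPM on linear axes from 0 for 16 genes in each library of serum, first 2i, long 2i and serum return, in order of culture (points: libraries, red for serum and blue for 2i; line: mean of 2). Lefty1 is lowest and Nefm highest in long 2i, whereas Axin2, Sp5 and Spry4 follow the medium in both rounds.

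Enzymes of de novo DNA methylation moved apart. Dnmt3l, the catalytically inactive cofactor, read 378 and 406 CPM in serum return, against 83 and 84.2 CPM in long 2i, a rise of 4.69-fold (adjusted p = 5.78e-18, edgeR). Dnmt3a rose 3.01-fold, with 50.3 and 54.1 CPM in serum return, against 16.7 and 17.9 CPM in long 2i. Dnmt3b fell 1.77-fold, with 101 ± 0.74 CPM in serum return and 179 ± 7.1 CPM in long 2i (SD, with a log2 fold change of -0.82 ± 0.06 SE and adjusted p = 4.44e-11, edgeR). The cofactor and Dnmt3a were therefore higher in serum return and Dnmt3b was lower, each without overlap between libraries. Tet2, an oxidase that removes methylation, rose 2.19-fold to 323 and 337 CPM in serum return, against 148 and 153 CPM in long 2i. In the list of methylation and retroelement regulators 9 of 22 tested genes rose and 10 fell, a called share of 86.4%.

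Germline genes, which promoter methylation is known to silence, did not fall together. Of 24 tested members 12 rose, 6 fell and 6 did not pass, a called share of 75% beside 71.4% of all genes. Mael, a factor of the piRNA pathway, read 21.6 and 18.5 CPM in serum return, against 1 and 1.32 CPM in long 2i and rose 17.1-fold. The testis bromodomain gene Brdt rose 7.21-fold to 8.54 and 7.96 CPM in serum return, against 0.709 and 1.53 CPM in long 2i, and Tdrkh, a Tudor-domain protein, 7.14-fold. Fkbp6, a meiotic gene, went the other way and fell 28.9-fold, with 3.08 and 3.35 CPM in serum return, against 93.1 and 92.7 CPM in long 2i. Dazl, an RNA-binding protein of germ cells, fell 4.71-fold, with 16.7 and 15.4 CPM in serum return, against 81.4 and 70.4 CPM in long 2i.

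Subunits of polycomb repressive complex 2 went both ways. Phf19, a Tudor-domain subunit, read 25.3 and 24.8 CPM in serum return, against 3.43 and 5.07 CPM in long 2i and rose 5.85-fold. Jarid2 rose 2.98-fold, with 780.1 and 779 CPM in serum return, against 261 and 262 CPM in long 2i, and Aebp2 fell 2.28-fold, with 96.3 and 104 CPM in serum return, against 234 and 223 CPM in long 2i. Over the 11 subunits tested 4 rose and 4 fell, a called share of 72.7% beside 71.4% of all genes. Of the core subunits Suz12 did not pass (adjusted p = 0.632, edgeR), Ezh2 had a log2 fold change of -0.26 and Eed one of 0.46, values looked up after the list was counted.

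Most hypoxia-responsive and glycolytic genes rose. Of 25 tested genes 17 rose and 5 fell, a called share of 88%, with a median log2 fold change of 1.23. Egln3, a prolyl hydroxylase that hypoxia-inducible factor induces, read 77.8 and 77 CPM in serum return, against 1.12 and 1.43 CPM in long 2i, a rise of 60.1-fold (adjusted p = 4.34e-19, edgeR). Slc16a3, which exports lactate, read 113 and 125 CPM in serum return, against 3.31 and 3.06 CPM in long 2i and rose 37.4-fold. Bnip3, a mitochondrial protein of hypoxia and mitophagy, rose 30.3-fold to 31.3 and 29.9 CPM in serum return, against 1.06 and 0.95 CPM in long 2i. Vegfa, the endothelial growth factor, read 120.3 and 123 CPM in serum return, against 6.68 and 8.45 CPM in long 2i and rose 16-fold. All 4 were far above their long 2i levels in both serum return libraries. The 5 that fell had log2 fold changes between -0.86 (Ldhb) and -0.13 (Slc2a3). Gapdh and other glycolytic genes with processed pseudogenes lose reads that align to several places, so their levels are uncertain.

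Cholesterol synthesis fell almost as a whole. Of 23 tested genes 22 fell and 1 rose, a called share of 100%, with a median log2 fold change of -1. Insig1, which holds the sterol sensor in the endoplasmic reticulum, read 60.7 and 64.9 CPM in serum return, against 182 and 185 CPM in long 2i and fell 2.93-fold (adjusted p = 9.93e-16, edgeR). Msmo1, a sterol demethylase, read 108 and 105 CPM in serum return, against 276 and 261 CPM in long 2i and fell 2.51-fold. In both genes the serum return libraries were below the long 2i libraries. The 1 gene that rose was Pmvk, at 143 and 147 CPM in serum return, against 131 and 134 CPM in long 2i (adjusted p = 0.029, edgeR), a rise that was not called when any 1 of the 4 libraries was left out. Hmgcs1, the cytosolic HMG-CoA synthase, is listed at 0 in all 4 libraries and was not tested.

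Most genes of serine synthesis and the integrated stress response rose. Of 18 tested genes 12 rose and 2 fell, a called share of 77.8% beside 71.4% of all genes, with a median of 0.54. Chac1, which degrades glutathione and is induced by ATF4, read 55.5 and 56 CPM in serum return, against 5.2 and 4.75 CPM in long 2i, a rise of 11.2-fold (adjusted p = 7.05e-17, edgeR). Phgdh, the first enzyme of serine synthesis, read 102 and 116 CPM in serum return, against 12.3 and 13.1 CPM in long 2i and rose 8.56-fold. Psph, its last enzyme, rose 2.56-fold to 69.4 and 73.8 CPM in serum return, against 26.5 and 29.3 CPM in long 2i, and the mitochondrial Shmt2 2.3-fold. Both serum return libraries were above both long 2i libraries in these 4 genes. Atf4 itself read 686 and 646 CPM in serum return, against 715 and 690 CPM in long 2i and did not pass (adjusted p = 0.182, edgeR), a value looked up after those of its targets.

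The promoter of Chac1 is shown because Chac1 rose most of that list. The window is RefSeq's on GRCm38.p6, chr2:119350992-119351291 (plus strand), and capitals mark TTGCATCA, the reverse complement of the ATF4-C/EBP motif TGATGCAA, beginning 193 bases upstream of the start.
Chac1: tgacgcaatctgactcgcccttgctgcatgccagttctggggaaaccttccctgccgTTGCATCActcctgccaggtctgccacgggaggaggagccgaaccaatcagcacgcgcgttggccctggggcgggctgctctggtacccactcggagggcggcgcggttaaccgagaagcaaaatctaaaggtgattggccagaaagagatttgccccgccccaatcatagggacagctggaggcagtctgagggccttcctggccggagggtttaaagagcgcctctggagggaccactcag
On either strand TGATGCAA occurs in 0.895% of the windows, and of 15 listed genes with a window Chac1 and Slc7a11 hold it.

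Nuclear-encoded subunits of oxidative phosphorylation shifted by small amounts. Of 34 tested genes 18 fell, 7 rose and 9 did not pass, a called share of 73.5% beside 71.4% of all genes. Their median log2 fold change was -0.15. Ndufs1, a core subunit of complex I, rose 1.82-fold, with 324 and 312 CPM in serum return, against 175 and 174 CPM in long 2i, and Sdhc, an anchor of complex II, 1.71-fold. Ndufa4 fell 1.53-fold, with 139 and 127 CPM in serum return, against 208 and 199 CPM in long 2i. The call for Cycs, cytochrome c, was lost without replicate 2 of serum return (adjusted p = 0.0513, edgeR).

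Most aryl hydrocarbon receptor genes fell. This receptor binds xenobiotics and tryptophan products and induces cytochrome P450 genes. Of 8 tested genes 5 fell and 1 rose, a called share of 75% beside 71.4% of all genes, with a median of -2.73. Beside Cyp1a1, the receptor gene Ahr read 1.26 and 1.44 CPM in serum return, against 11.5 and 15.8 CPM in long 2i and fell 10.2-fold. Its repressor Ahrr read 0.287 and 0.651 CPM in serum return, against 16 and 14.2 CPM in long 2i and fell 33.2-fold. Nqo1, a quinone reductase that the Nrf2 pathway also induces, averaged 26.4 ± 1.2 CPM in serum return and 266 ± 6.2 CPM in long 2i (SD) and fell 10-fold. All 4 were separated between groups, and receptor, repressor and enzymes moved in the same direction.

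The promoters of Cyp1a1 and Ahrr are shown because these were the list's largest decreases. The windows are RefSeq's on GRCm38.p6, chr9:57697363-57697662 (plus strand) for Cyp1a1 and chr13:74292282-74292581 (minus strand) for Ahrr. Capitals mark GCGTG, the core of the xenobiotic response element, 54 bases upstream of the start in Cyp1a1 and 107, 82 and 27 bases upstream in Ahrr.
Cyp1a1: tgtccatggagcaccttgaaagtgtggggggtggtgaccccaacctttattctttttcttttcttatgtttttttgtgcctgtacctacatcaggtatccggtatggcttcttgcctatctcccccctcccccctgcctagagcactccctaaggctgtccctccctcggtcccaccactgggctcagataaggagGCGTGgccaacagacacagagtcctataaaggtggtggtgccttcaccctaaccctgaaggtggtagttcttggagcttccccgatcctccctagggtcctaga
Ahrr: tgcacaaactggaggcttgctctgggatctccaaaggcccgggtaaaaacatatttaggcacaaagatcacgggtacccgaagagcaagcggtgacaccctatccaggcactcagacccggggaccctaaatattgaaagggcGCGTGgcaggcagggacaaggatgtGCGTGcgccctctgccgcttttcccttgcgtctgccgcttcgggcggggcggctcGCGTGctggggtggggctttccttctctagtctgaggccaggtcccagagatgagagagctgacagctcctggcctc
This short core occurs on either strand in 32.4% of the windows, and in 4 of 7 listed genes with a window.

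The light and medium neurofilament genes, whose products fill axons, fell steeply. Beside Nefm, the light chain Nefl read 1.83 and 2.47 CPM in serum return, against 137 and 140.2 CPM in long 2i, a fall of 65.4-fold (adjusted p = 4.27e-20, edgeR). Stmn2, a microtubule regulator of neurons, read 12.7 and 14.6 CPM in serum return, against 159.6 and 159.8 CPM in long 2i and fell 11.8-fold. Sox1, an early neuroectoderm factor, rose 3.13-fold to 22.6 and 28 CPM in serum return, against 7.86 and 8.18 CPM in long 2i, so the list of 9 tested genes did not move together (4 rose and 5 fell, a called share of 100%).

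Most Hox genes, which pattern the body axis, fell. Of 15 tested genes 12 fell and 3 did not pass, a called share of 80%, with a median of -3.04. Hoxc13 read 0.646 and 0.651 CPM in serum return, against 22.7 and 20.4 CPM in long 2i and fell 32.9-fold, Hoxc4 12.5-fold and Hoxb9 7.34-fold, with 1.79 and 1.44 CPM in serum return, against 11.5 and 12.6 CPM in long 2i. In each, both long 2i libraries lay above both serum return libraries. Hoxc5, named after its value was seen, had no counts in serum return and 2.13 and 1.69 CPM in long 2i.

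Most genes of the primitive endoderm list rose. Of 16 tested primitive endoderm genes 11 rose and 4 fell, a called share of 93.8%, with a median of 1.98. Col4a1, a chain of type IV collagen, read 159 and 175 CPM in serum return, against 3.13 and 3.8 CPM in long 2i and rose 47.9-fold, and its partner Col4a2 rose 26.1-fold. Hnf4a, a nuclear receptor of endoderm and liver, read 15.9 and 14.4 CPM in serum return, against 0.768 and 0.211 CPM in long 2i, a rise of 31.6-fold. Sox7 rose 12.8-fold, with 36.9 and 36.1 CPM in serum return, against 2.25 and 3.38 CPM in long 2i. These 4 genes were well above their long 2i levels in both libraries, but the list did not move as one. Dab2, an endocytic adaptor of primitive endoderm, fell to 1.83 and 1.72 CPM in serum return, against 8.27 and 8.76 CPM in long 2i, and Gata4 to 2.58 and 2.28 CPM, against 3.96 and 5.38 CPM, both named after their values were seen.

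Genes known from endothelium split. Nos3 and Robo4, a guidance receptor of vessels, rose 234-fold and 144-fold, and Robo4 read 43.9 and 45.9 CPM in serum return, against 0.296 and 0.317 CPM in long 2i. Tie1 rose 12.3-fold to 5.38 and 5.72 CPM in serum return, against 0.591 and 0.317 CPM in long 2i. Tek, the receptor of angiopoietin, fell 3.64-fold, with 1.9 and 1.67 CPM in serum return, against 6.92 and 6.23 CPM in long 2i. Kdr, the receptor of Vegfa, fell 12.3-fold, with 0.502 and 0.279 CPM in serum return, against 5.56 and 4.54 CPM in long 2i. Kdr was counted in the primitive streak and mesoderm list and not among the blood and endothelial genes. Of 9 tested blood and endothelial genes 6 rose and 2 fell, a called share of 88.9%, with the pan-blood marker Ptprc at or below 0.0591 CPM in every library. Among fibroblast markers 4 of 7 tested rose and none fell, a called share of 57.1% beside 71.4% of all genes. Thy1 read 23.1 and 21.4 CPM in serum return, against 0.118 and 0.264 CPM in long 2i. Col1a1, a fibroblast collagen, was among those that rose but stayed low: it read 2.4 and 2.47 CPM in serum return and 0.65 and 1.64 CPM in long 2i. What share such cells have in these results was not tested.

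Trophectoderm genes showed 4 rises and 6 falls of 13 tested, a called share of 76.9%, and the rises numbered 2 without replicate 2 of serum return or without replicate 1 of long 2i. Tfap2a and Tfap2c, AP-2 transcription factors, fell 10.4-fold and 4.36-fold, and Tfap2a read 3.73 and 4.79 CPM in serum return, against 43.3 and 43.9 CPM in long 2i. Krt19, a keratin of simple epithelia, rose 10.1-fold, with 6.31 and 7.44 CPM in serum return, against 0.709 and 0.633 CPM in long 2i, whereas Krt8 fell 1.46-fold. Of 9 tested primitive streak and mesoderm genes 2 rose and 4 fell, a called share of 66.7% beside 71.4% of all genes. Among adhesion molecules Cdh1 (E-cadherin) fell 2.58-fold, with 208 and 209 CPM in serum return, against 531 and 544 CPM in long 2i. Cldn4, a tight junction protein, fell 5.94-fold, and Itga6, a laminin receptor subunit, rose 2.75-fold. The adhesion list held 7 rises and 4 falls of 15 tested, a called share of 73.3% beside 71.4% of all genes. The falls numbered 2 with DESeq2 and without replicate 1 of long 2i.

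Several inhibitors of the cell cycle fell. Cdkn2a, which encodes p16 and p19Arf, read 1.65 and 1.49 CPM in serum return, against 35.6 and 37.5 CPM in long 2i, a fall of 23.1-fold. Its neighbour Cdkn2b read 0.323 and 0.465 CPM in serum return, against 5.38 and 6.18 CPM in long 2i and fell 14.8-fold. Cdkn1a (p21), the main arrest gene downstream of p53, read 30.7 and 34.1 CPM in serum return, against 149 and 162 CPM in long 2i and fell 4.81-fold (adjusted p = 1.32e-16, edgeR). In all 3 both serum return libraries were far below both long 2i libraries. Cdkn1c (p57), which is imprinted, rose 6.05-fold, with 7.17 and 8.14 CPM in serum return, against 1.3 and 1.21 CPM in long 2i, and Mycn fell 2.6-fold. Over the list of cell cycle inhibitors and D cyclins 5 of 12 tested genes rose and 4 fell. The called share was 75% beside 71.4% of all genes.

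Of 17 tested p53 targets 13 fell and 4 rose, a called share of 100%, with a median of -0.64. Plk2, a kinase, read 11.6 and 12.1 CPM in serum return, against 100.4 and 101 CPM in long 2i and fell 8.49-fold, and Ccng1, cyclin G1, fell 3.32-fold. Pmaip1 (Noxa), a BH3-only protein that primes cells for death, went strongly against the others, with 156 and 146 CPM in serum return, against 2.96 and 3.75 CPM in long 2i, a rise of 44.8-fold.

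Imprinted genes, expressed from 1 parental allele, went both ways, with 10 rises and 14 falls of 28 tested, a called share of 85.7%. Plagl1, a zinc finger factor, read 39 and 35.9 CPM in serum return, against 303 and 282 CPM in long 2i and fell 7.79-fold. Phlda2, which limits placental growth, read 14.3 and 13.5 CPM in serum return, against 0 and 0.528 CPM in long 2i and rose 49-fold. Grb10, an adaptor of insulin signalling, rose 2.74-fold, with 79.8 and 83.3 CPM in serum return, against 30.4 and 29.1 CPM in long 2i.

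**Figure D3:**
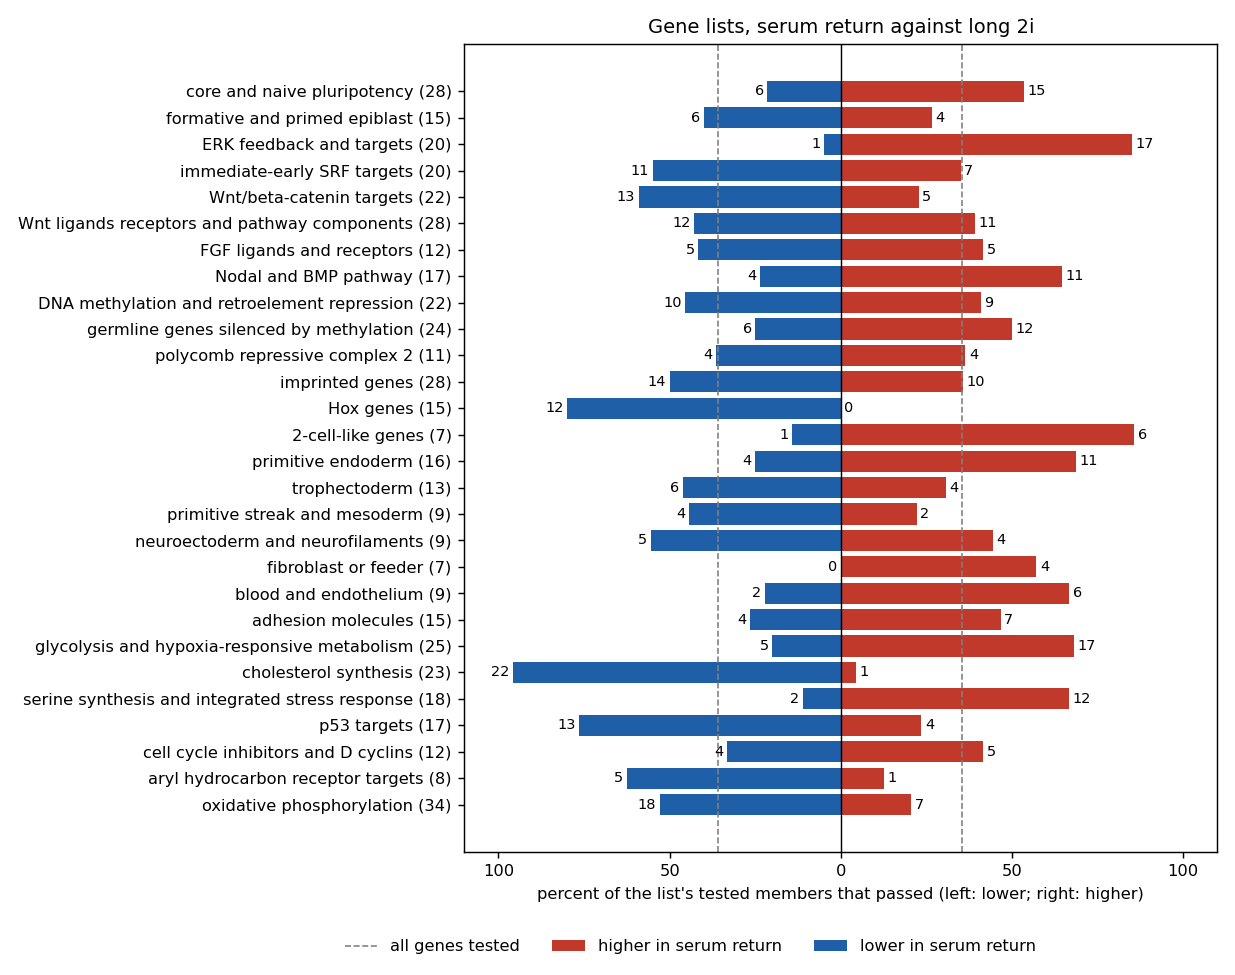
Share of each list's tested members (number in parentheses) that were higher (red, to the right) or lower (blue, to the left) in serum return than in long 2i, in percent, with counts at the bar ends; dashed lines give the shares over all genes tested, 35.4% and 36%. Cholesterol synthesis (22 of 23 lower) and Hox genes (12 of 15 lower) extend furthest to the left. ERK feedback and target genes (17 of 20 higher) and the 7 tested 2-cell-like genes (6 higher) extend furthest to the right.

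How this late difference between serum and 2i compares with an early one was examined with the original serum libraries against the first 2i libraries. These share no library with the comparison above. Each difference, called an effect below, takes medium and time in culture together. In that earlier pair 9952 genes (70%) differed, 4956 higher (34.9%) and 4996 lower (35.1%) in serum, and 3645 (25.6%) differed by at least 2-fold. Called in both comparisons were 7564 genes, of which 5953 (78.7%) moved in the same direction and 1611 in opposite directions. Among 2322 genes that changed at least 2-fold in each, 2177 (93.8%) had the same direction and 145 opposite ones. Across all 14220 genes the log2 fold changes had Pearson's r = 0.68 and Spearman's rho = 0.551, a description over genes, which are not independent replicates. Genes higher in both numbered 3006 (59.6% of those higher in serum return and 60.7% of those higher in serum), and genes lower in both 2947 (57.6% of those lower in serum return and 59% of those lower in serum).

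The difference between the late and the early effect was tested in the same edgeR model. It was called for 8012 genes (56.3%), positive for 4229 (29.7%) and negative for 3783 (26.6%), and reached 2-fold in 2753 (19.4%). The signs are late minus early, each effect being serum over 2i. A positive difference thus means a higher log2 ratio of serum return to long 2i than of original serum to first 2i. It can arise from the serum groups, the 2i groups or both. Lefty1 and Lefty2 had differences of 7.19 and 6.14 (adjusted p = 1.23e-16 and 7.77e-22, edgeR). Lefty1 stood at 111 and 129 CPM in serum return, against 0.887 and 0.581 CPM in long 2i, but at 147 and 164 CPM in original serum, against 138 and 139.5 CPM in first 2i. Lefty2 even reversed: its original serum libraries read 402 and 394 CPM, against 877 and 859 CPM in first 2i. Both Lefty genes were thus lowest in long 2i, far below the 3 other groups.

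The reverse pattern, a smaller rise of serum return over long 2i than of original serum over first 2i, was found for several ERK-responsive genes. Etv4 had a difference of -4.90 (adjusted p = 1.15e-18, edgeR), with 277 and 288 CPM in original serum, against 4.49 and 4.72 CPM in first 2i. Spry4 had one of -3.37, with 406 and 408 CPM in original serum, against 1.92 and 1.51 CPM in first 2i. Egr1 had -2.70 and Myc -1.23. In each of these 4 genes both long 2i libraries lay above both first 2i libraries. Over the ERK list 14 of 20 tested genes had a called difference, 13 of them negative. Over the DNA methylation list 15 of 22 had one, 12 of them negative. Over all genes 56.3% had a called difference, with 29.7% positive and 26.6% negative. Dnmt3l had a difference of -4.23, and Id1 one of -3.45. Dnmt3b had -3.18 and changed sign: it was lower in serum return than in long 2i, whereas original serum read 148 and 145 CPM, against 30.1 and 27.2 CPM in first 2i. Dnmt3a had a small positive difference of 0.48.

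Large negative differences were also found for genes of other kinds. Fgfbp1, a carrier that releases FGFs from matrix, read 0.43 and 0.558 CPM in serum return, against 31.6 and 28.8 CPM in long 2i and had a difference of -6.78, with 2.97 and 3.39 CPM in original serum, against 1.5 and 2.05 CPM in first 2i. Slc5a1, a sodium-glucose cotransporter, read 0.395 and 0.326 CPM in serum return, against 8.69 and 8.34 CPM in long 2i and had -5.17, with 1.15 and 0.782 CPM in original serum, against 0.702 and 0.536 CPM in first 2i. Both were high in long 2i and low in the 3 other groups. Nefm had a difference of -4.43, Nefl one of -1.21 and Cyr61 one of -2.64. Trpv5 had -5.87, which rests on 5 counts in original serum and 3 in serum return, and was not called without replicate 1 of serum (adjusted p = 0.123, edgeR). Gja1 (connexin 43), a gap junction protein, read 33.9 and 32.9 CPM in serum return, against 54.6 and 51.5 CPM in long 2i and had -5.07, with 69.7 and 65.7 CPM in original serum, against 3.13 and 3.26 CPM in first 2i. Rcsd1, an actin-capping regulator, did not pass between serum return and long 2i, with 5.78 and 7.3 CPM in serum return, against 5.67 and 4.96 CPM in long 2i (adjusted p = 0.176, edgeR). It read 9.57 and 7.97 CPM in original serum, against 0.234 and 0.0487 CPM in first 2i, which gave a difference of -5.59.

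Metabolic and stress lists differed in sign. Chac1 had a difference of 3.45, with 19.6 and 19.6 CPM in original serum, against 17.9 and 20.5 CPM in first 2i. Phgdh had 2.48 and Vegfa 2.65, and Vegfa read 68.5 and 71.2 CPM in original serum, against 30 and 24.7 CPM in first 2i. The counts of called differences that follow are to be read beside 56.3% of all genes, 29.7% positive and 26.6% negative. For the serine and stress list 14 of 18 tested genes were called, 13 of them positive. For glycolysis and hypoxia 22 of 25 were called, 15 of them positive. Among germline genes 17 of 24 were called, 15 of them positive. In cholesterol synthesis 18 of 23 were called, 16 of them negative, and in oxidative phosphorylation 25 of 34, 19 of them negative. Ticam2, an adaptor of Toll-like receptor signalling, and Adm2 and Cdh22 had differences of 6.08, 6.51 and 6.13, fitted values that depend on the prior count because long 2i held few or no counts. Gad2, an enzyme of GABA synthesis, had 8.90 on the same terms, with 6.64 and 7.06 CPM in first 2i and at most 0.106 CPM in any serum return, long 2i or original serum library.

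Wnt targets had mixed differences. Axin2 had 1.43 (adjusted p = 1.08e-07, edgeR): serum return kept 7.86 and 7.68 CPM, and original serum read 2.34 and 3.02 CPM, against 66.9 and 70.5 CPM in first 2i. Sp5 had a difference of -0.52 that did not pass (adjusted p = 0.826, edgeR). Lef1 had -2.34. In the core network Sox2 had 0.87 and Nanog 0.70, while Pou5f1 and Esrrb had 0.18 and 0.22. These last 2 calls were lost without replicate 1 of long 2i, replicate 1 of serum or replicate 2 of first 2i, and that of Pou5f1 also without replicate 2 of serum return (adjusted p = 0.0768 to 0.118 for Pou5f1 and 0.0565 to 0.07 for Esrrb, edgeR). Nanog was lower in original serum, at 729.6 and 709.9 CPM, against 1117 and 1119 CPM in first 2i (adjusted p = 1.21e-10, edgeR).

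**Figure D4:**
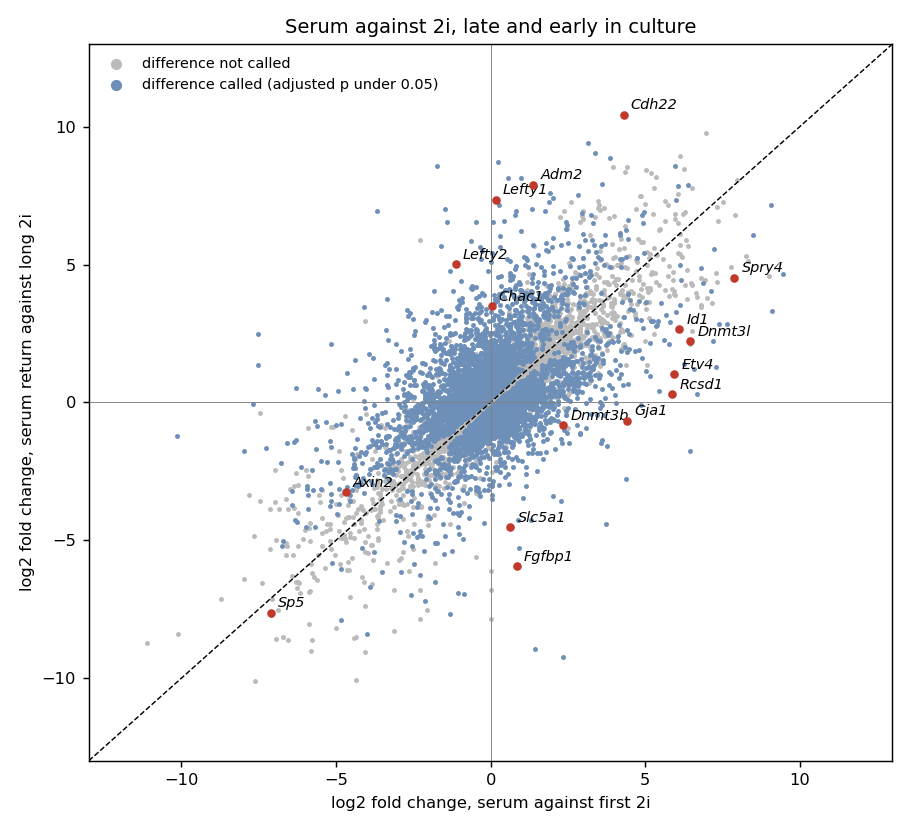
Each point is 1 of 14220 genes, with the log2 fold change of serum against first 2i on the horizontal axis and of serum return against long 2i on the vertical axis; blue genes have a called difference between the effects, grey ones do not, named genes are red, and the dashed line marks equal effects. The cloud follows the dashed line (r = 0.68), with Lefty1, Lefty2 and Chac1 above it and Fgfbp1, Slc5a1, Etv4, Dnmt3l and Dnmt3b below it.

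Against the original serum culture, serum return differed in 4407 genes (31%) at an adjusted p under 0.05 and by at least 2-fold in 459 (3.23%). This comparison shares its serum return libraries with the main one. Spry4, Egr1, Etv4 and Dnmt3l differed from original serum by 0.15, 0.03, 0.00 and 0.08 on the log2 scale, and of these only Spry4 passed (adjusted p = 0.0331, edgeR). Axin2 was higher in serum return by 1.54 (adjusted p = 6.72e-08, edgeR), Chac1 by 1.51 and Hoxc13 by 2.63. Axin2 and Hoxc13 in serum return lay between their levels in original serum and long 2i. Chac1, in contrast, was lower in long 2i than in original serum, and in serum return it exceeded both. Cdkn2a was also higher, by 1.45, with 1.65 and 1.49 CPM in serum return, against 0.526 and 0.625 CPM in original serum. Lower in serum return were Fgfbp1, by a log2 fold change of -2.69, and Tfap2c, by -1.54.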

How the data were processed

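For each library the authors deposited raw read counts by gene symbol. The submitters' processing notes name TopHat2 2.0.4, CASAVA 1.8.2, HTSeq 0.5.4p5, DESeq2 and the mouse build mm9. No source used here gives the annotation, the strand setting or the read layout, so overlapping and antisense genes are uncertain. The tables list 24015 genes, and their 5 summary categories were left out. Records aligned to several places made up 34.74 to 35.7% of all records in the 4 libraries compared, records outside features 10.34 to 11.76% and ambiguous ones 0.69 to 0.72%, so multicopy genes are counted too low.

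Genes passed filterByExpr (minimum count 10, total 15), which left 14220. The test was that of edgeR 4.0.16 (R 4.3.3), by TMM scaling and a robust quasi-likelihood fit to all 10 libraries with group as the only term (5 residual degrees of freedom). P-values are two-sided and Benjamini-Hochberg adjusted over all genes tested. A standard error is the log2 fold change over the square root of F. Alternatives, DESeq2 1.42.0 among them, are given below. The fit, tested on simulated counts for this comparison (13837 genes), recovered 100 of 100 genes changed 2-fold and 100 of 100 changed 4-fold. The simulation changed 100 genes at each fold out of 13837, whereas 71.4% of the genes tested were called in the data. Wrong calls among its unchanged genes are not reported here, so the recovery does not measure how reliable the calls in the data are.

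For a group without counts the fold is a lower bound, with the floor at 3 counts for both libraries together (0.0608 CPM in serum return, 0.0837 CPM in long 2i), which covers counting error only. Named genes are the 12 higher and 12 lower with the largest folds (at least 5 CPM in the higher group, the same direction in all library pairs, no model names, ribosomal protein or histone genes), up to 4 per list, 20 fixed genes and 6 per direction for the difference. The text names part of these, and some are not reported here. Any other gene is marked as picked after seeing its values. The 4 genes Chac1, Vegfa, Phgdh and Cyr61 were added to the tested differences in this way. The 28 gene lists were written from textbook knowledge, and members, lists and rules were chosen with earlier results of these data known. Promoter sequences were matched by symbol.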

Additional observations from a re-analysis of the deposited data

Results flagged for a closer look

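The late and the early effect differed for 8012 genes in the edgeR test of the difference itself. For the genes below the differences are log2 values, late minus early. Lefty1 had 7.19, Lefty2 6.14, Adm2 6.51, Cdh22 6.13, Ticam2 6.08 and Gad2 8.90. Smaller positive differences were those of Chac1 (3.45), Vegfa (2.65), Phgdh (2.48), Axin2 (1.43), Sox2 (0.87), Nanog (0.70), Dnmt3a (0.48), Esrrb (0.22) and Pou5f1 (0.18). Among the negative ones, Fgfbp1 had -6.78, Trpv5 -5.87, Rcsd1 -5.59, Slc5a1 -5.17 and Gja1 -5.07. Etv4 had -4.90, Nefm -4.43, Dnmt3l -4.23, Id1 -3.45, Spry4 -3.37 and Dnmt3b -3.18. Egr1 had -2.70, Cyr61 -2.64, Lef1 -2.34, Myc -1.23 and Nefl -1.21. The values of Gad2, Adm2, Cdh22, Ticam2, Trpv5 and Rcsd1, among others, involve groups with few or no counts. All were called with TMM scaling and the full set of libraries, and the calls that were lost when a library was left out are given with the processing alternatives.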

How the results depend on the processing

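The 10153 genes that changed between serum return and long 2i numbered 9239 to 9481 when 1 of the 4 libraries was left out. There the single library left in a group took its spread from the other groups. They numbered 10140 with DESeq2's size factors in edgeR, 10493 with no filter on low counts, 9333 with DESeq2, 10007 with the 4 libraries alone and 10154 without Rn45s. Changes of at least 2-fold ranged from 3583 (DESeq2) to 4086 (no filter). The called difference between the late and early effects covered 6985 (DESeq2) to 9022 genes. Higher genes made up 49.5 to 50.6% of calls where both libraries of each compared group were kept. The median log2 fold change stayed within 0.011 of 0. Every scaling used centres the typical gene near 0, so both values follow largely from the scaling. A change in total RNA would not be seen. No alternative reversed a named gene. With the title series as a replicate block 10847 genes changed and 9022 had a called difference. The differences between replicates correlated at 0.126 between serum return and long 2i and at 0.0994 to 0.168 over all 10 pairs of groups, a hint from the data that libraries of a series deviate together. The labels do not say what the series is, and 2 replicates per group are too few to treat it as a pairing. Of 130 named genes 3 changed their call under any alternative, Lef1, Xlr5b and Cycs. Xlr5b lost its call with the 4 libraries alone (adjusted p = 0.0628) and without either serum return library (adjusted p = 0.107 and 0.0886). Of 33 genes with a tested difference 4 lost the call. Without replicate 1 of long 2i, replicate 1 of serum or replicate 2 of first 2i, Pou5f1 and Esrrb lost it, and Pou5f1 also without replicate 2 of serum return (adjusted p = 0.0768 to 0.118 for Pou5f1 and 0.0565 to 0.07 for Esrrb). Gad2 lost it without replicate 2 of serum return (adjusted p = 1) and Trpv5 without replicate 1 of serum (adjusted p = 0.123). For the lists, 1 fibroblast marker fell without replicate 2 of serum return, and 1 Hox gene rose without replicate 2 of long 2i. Genes near 0 counts are limited by depth.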

Other observations

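Transcripts of the 2-cell-like state, a rare condition of stem cell cultures marked by Zscan4, were detected in serum return at low levels. Zscan4d had 2.76 and 1.86 CPM in serum return and no counts in long 2i, at least 27.6-fold higher. Zscan4c had 2.19 and 1.16 CPM in serum return and no counts in long 2i, at least 20-fold higher. The original serum libraries read 0.0957 and 0.0521 CPM of Zscan4d and 0.0957 and 0.104 CPM of Zscan4c. Usp17la, a deubiquitinase of the same state, read 1.08 and 0.791 CPM in serum return, against 0.118 and 0.106 CPM in long 2i (adjusted p = 3.43e-04, edgeR). Of 7 tested members of this list 6 rose and 1 fell, a called share of 100%, and 8 further members in the files did not pass the filter. These genes have near-identical copies whose shared reads were not counted, so their levels are uncertain, and they were named after their values were seen.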
